A study of Mus musculus with 11 samples.

Results

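Mas-related G protein–coupled receptors (Mrgprs) are a family of GPCRs that in mice are carried mostly by small-diameter sensory neurons. Of the 36670 genes in the deposited RNA-Seq table of mouse dorsal root ganglia (DRGs), 8 members of this family are described here: *Mrgprd*, *Mrgpra3*, *Mrgprx1*, *Mrgprb4*, *Mrgprb5*, *Mrgpre*, *Mrgprf*, and *Mrgprx3-ps*. They were chosen by gene symbol, and all 8 passed the filter on low values (a mean FPKM of at least 0.5). The table holds 27 rows with an Mrgpr symbol, so 19 rows of the family lie outside this set.

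The DRG libraries came from 11 mice, 1 library per mouse, in 4 groups. These were 3 WT controls, 3 WT mice taken 4 weeks after paclitaxel (PTX), 3 *Gpr37l1*-KO controls, and 2 *Gpr37l1*-KO mice taken 4 weeks after PTX. PTX is a chemotherapy drug that causes painful neuropathy, and *Gpr37l1* encodes a receptor of satellite glial cells, which wrap the cell bodies of DRG neurons. The paper examined the role of this receptor in neuropathic pain, including pain after PTX. The KO line carried the constitutive allele Gpr37l1 tm1Lex, so the deletion was not limited to glia, and WT and KO mice shared a C57BL/6 background. The strain name given in the paper also holds a strain other than C57BL/6, whose remaining share in these mice is not given. The WT groups carried no engineered allele, the age of each mouse is not given in the labels, and each group held 1 mouse labelled female, which was number 3 in every group by the sample descriptions. The titles number the KO female after PTX as 2, and the descriptions were followed here. Sex and the number 3 therefore cannot be told apart.

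Mouse Mrgprs sort into neuron classes. *Mrgprd*, a receptor for β-alanine, marks the nonpeptidergic nociceptors that end in the outer epidermis (class NP1). *Mrgpra3*, the chloroquine receptor, and *Mrgprx1*, which answers proenkephalin-derived peptides, mark itch neurons (class NP2), and *Mrgprb4* marks C-fibers that answer gentle stroking of hairy skin. *Mrgprb5* is the closest relative of *Mrgprb4*, *Mrgpre* and *Mrgprf* are orphan receptors outside the itch clusters, and *Mrgprx3-ps* is annotated as a pseudogene. The transcription factor RUNX1 is known for controlling Mrgpr expression in these neurons.

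The genotype labels held for the deleted gene. *Gpr37l1* lay between 14.56 and 35.70 FPKM in the WT libraries and between 0.21 and 1.15 FPKM in the KO libraries, and the difference in controls was −7.03 on the log2 scale (edgeR adjusted p = 4.5e-05). Total estimated counts ran from 52735648 to 80348732 per library. Summed pan-neuronal markers reached 3473 to 4547 FPKM, as a DRG should show, whereas skeletal muscle markers varied from 3.9 to 663.4 FPKM between libraries. Spinal cord and central glial markers summed to 13.1 and 28.4 FPKM in the KO mice after PTX and to between 5.8 and 15.2 FPKM elsewhere. The part of these other tissues in the results was not tested.

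All 8 genes lie on mouse chromosome 7 (GRCm38/mm10). *Mrgpra3* (chr7:47588950-47601372), *Mrgprx1* (chr7:48020971-48027597), *Mrgprb5* (chr7:48167983-48169019), *Mrgprb4* (chr7:48198070-48199288), and *Mrgprx3-ps* (chr7:47309378-47310295) share 1 cluster, and *Mrgpre* (chr7:143778363-143784500), *Mrgprf* (chr7:145300828-145309557), and *Mrgprd* (chr7:145314835-145324086) lie far from it. Close relatives can trade reads, so exact sharing was measured over windows of 75 bases. In *Mrgprd*, *Mrgprf*, *Mrgpre*, *Mrgprb4*, *Mrgprb5*, and *Mrgprx3-ps*, 0% of these windows occurred in a transcript of another gene. The share was 0.723% for *Mrgprx1* (with Gm18348) and 0.164% for *Mrgpra3* (with *Mrgpra4*). In contrast, *Mrgpra2a* and *Mrgpra2b*, which are no members of the set, shared 80.4% and 78.7% of their windows, so the split of reads between them is uncertain. *Mrgpre* overlaps Gm22064 on the opposite strand, and the strand setting of the counting is not given in the sources used here.

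The pseudogene of the set can be read against a receptor relative. The transcript of *Mrgprx3-ps* is 918 bases long, and its longest open reading frame spans 100% of it. Its aligned bases are 85.9% identical to the coding sequences of *Mrgpra2a* and *Mrgpra2b* and 84.2% identical to that of *Mrgpra3*, its closest relative among the members. The following 90 bases, from the annotated transcripts, show the stretch from 413 to 502 of the *Mrgprx3-ps* transcript and the matching stretch from 494 to 583 of the *Mrgpra3* coding sequence, with the 22 bases that differ in capitals.
Mrgprx3-ps: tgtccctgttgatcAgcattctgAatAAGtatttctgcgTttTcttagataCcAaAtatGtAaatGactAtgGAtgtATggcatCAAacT
Mrgpra3: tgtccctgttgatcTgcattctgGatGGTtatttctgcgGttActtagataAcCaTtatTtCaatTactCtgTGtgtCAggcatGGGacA
The differing bases are spread along the whole stretch.

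*Mrgprb4* and *Mrgprb5* are the closest pair among the members with a protein product, with 84.8% of aligned coding bases identical. The stretch from 435 to 524 of *Mrgprb4* is set against 438 to 527 of *Mrgprb5*, with the 20 differing bases in capitals.
Mrgprb4: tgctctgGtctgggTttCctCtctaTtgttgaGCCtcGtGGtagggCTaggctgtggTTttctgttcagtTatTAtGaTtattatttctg
Mrgprb5: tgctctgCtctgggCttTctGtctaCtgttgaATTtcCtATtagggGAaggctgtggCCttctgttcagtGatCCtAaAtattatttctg
The likeness goes on before the genes. The 137 bases at chr7:48199289-48199425 (minus strand, before *Mrgprb4*) and at chr7:48169096-48169232 (minus strand, before *Mrgprb5*) are 80.3% identical, with 27 differing bases in capitals.
Mrgprb4 upstream: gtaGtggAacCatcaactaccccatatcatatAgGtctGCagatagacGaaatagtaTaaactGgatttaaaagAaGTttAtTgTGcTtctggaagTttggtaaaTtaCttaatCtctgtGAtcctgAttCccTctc
Mrgprb5 upstream: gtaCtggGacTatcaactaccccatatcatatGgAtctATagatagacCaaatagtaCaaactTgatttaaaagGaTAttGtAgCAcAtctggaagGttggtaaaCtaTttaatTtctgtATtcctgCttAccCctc
These neighbors thus resemble each other within and before the transcript, and their levels are compared further on.

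*Mrgprd* is the most abundant member, and the 250 bases before its start are shown because RUNX1 is known to act on this gene. They lie at chr7:145314585-145314834 on the plus strand (RefSeq, GRCm38.p6).
Mrgprd upstream: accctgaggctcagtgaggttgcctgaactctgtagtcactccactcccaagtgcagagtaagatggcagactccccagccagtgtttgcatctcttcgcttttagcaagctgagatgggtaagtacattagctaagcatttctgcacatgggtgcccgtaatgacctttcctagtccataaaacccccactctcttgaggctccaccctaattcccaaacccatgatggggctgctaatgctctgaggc
The RUNX core letters TGTGGT or TGCGGT were searched on both strands, and 0 of the 5 members with a window in the RefSeq table held a match. Over the whole table, 6107 of 32851 windows of this length (18.6%) held one. These letters are therefore absent from the windows searched, which says nothing of sites elsewhere.

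The levels of the 8 genes spanned more than a factor of 10. Levels are given in FPKM, which counts fragments relative to transcript length and library size, so genes can be compared as far as the annotated lengths hold. These lengths run from 918 bases for *Mrgprx3-ps* to 3761 for *Mrgpre*, with 3144 for *Mrgprd*. Their part in the order of levels was not tested. *Mrgprd* averaged 31.7 ± 8.10 FPKM (SD, n = 11), which placed it at 1428 of the 36670 genes by mean level. *Mrgprx3-ps* followed at 25.7 ± 4.06 FPKM and *Mrgprx1* at 13.2 ± 2.71 FPKM. The pseudogene was thus second by FPKM, above every itch receptor of the set. *Mrgpra3* averaged 9.33 ± 1.79 FPKM and *Mrgpre* 7.91 ± 0.530 FPKM. *Mrgprb4* averaged 3.77 ± 1.63 FPKM, *Mrgprb5* 2.95 ± 1.04 FPKM, and *Mrgprf* 2.24 ± 0.678 FPKM. The whole ganglion was measured, so fewer cells of a class and less RNA per cell cannot be told apart in any of these values.

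**Figure D1:**
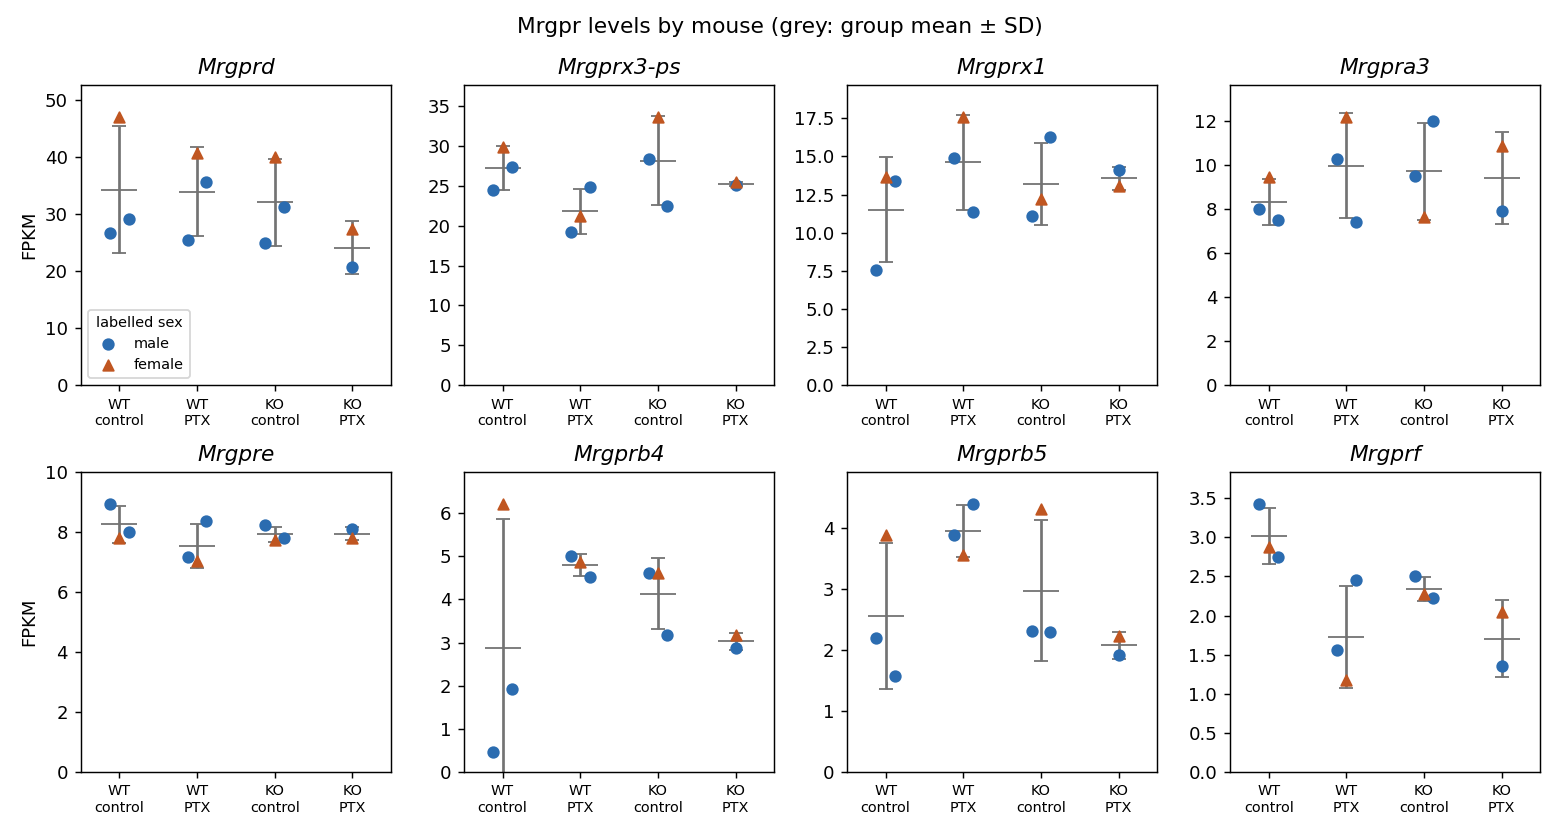
Level of each of the 8 genes in FPKM (vertical axis, from 0, scaled per panel) in every mouse of the 4 groups, with 1 point per mouse and a bar at the group mean ± SD. Triangles mark females and circles males. *Mrgprd* is the highest gene in 9 of 11 libraries, and the WT control bar of *Mrgprb4* is cut at 0 because its SD (2.99 FPKM) is larger than its mean (2.87 FPKM).

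Neighbors in this order were compared within libraries by the difference of their log2(FPKM + 1) values. A two-sided exact sign-flip permutation test was used, with Benjamini-Hochberg adjustment over 7 pairs. The smallest p this design allows is 0.000977. *Mrgprd* exceeded *Mrgprx3-ps* in 9 of 11 libraries, by 0.27 ± 0.35 on the log2 scale (exact p = 0.0283, adjusted p = 0.0496). That call was lost in 10 alternatives, 9 of the 11 that leave out a library and a pseudocount of 0.1, with exact adjusted p up to 0.0991. *Mrgprx3-ps* exceeded *Mrgprx1* in 11 of 11 libraries by 0.92 ± 0.43 (exact adjusted p = 0.00342), and *Mrgprx1* exceeded *Mrgpra3* in 10 of 11 by 0.45 ± 0.25 (exact adjusted p = 0.00456). *Mrgpra3* and *Mrgpre* did not differ beyond their spread (0.20 ± 0.31, exact adjusted p = 0.0916). *Mrgpre* exceeded *Mrgprb4* in 11 of 11 libraries by 1.01 ± 0.70 (exact adjusted p = 0.00342). Below this step, *Mrgprb4* over *Mrgprb5* (0.21 ± 0.49, exact adjusted p = 0.180) and *Mrgprb5* over *Mrgprf* (0.27 ± 0.53, exact adjusted p = 0.145) did not pass. WT control mouse 1 held only 33 counts of *Mrgprb4*, and without it *Mrgprb4* exceeded *Mrgprb5* by 0.34 (exact adjusted p = 0.00342).

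Within the family, the 8 members made up 78.6 ± 3.54% of the summed Mrgpr FPKM (SD, n = 11), which ran from 109.31 to 143.93 FPKM. *Mrgprd* alone took 25.5 ± 4.39%, *Mrgprx3-ps* 20.9 ± 2.82%, and *Mrgprx1* 10.8 ± 2.21%. Most of the rest came from *Mrgpra2b* (14.8 ± 2.61 FPKM) and *Mrgpra2a* (8.79 ± 1.24 FPKM), the pair with shared sequence. *Mrgprc1-ps*, another pseudogene, ran from 0.70 to 1.98 FPKM. The other 16 rows averaged at most 0.295 FPKM and did not exceed 0.60 FPKM in any library. Among these was *Mrgprb2*, the receptor of connective tissue mast cells.

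**Figure D2:**
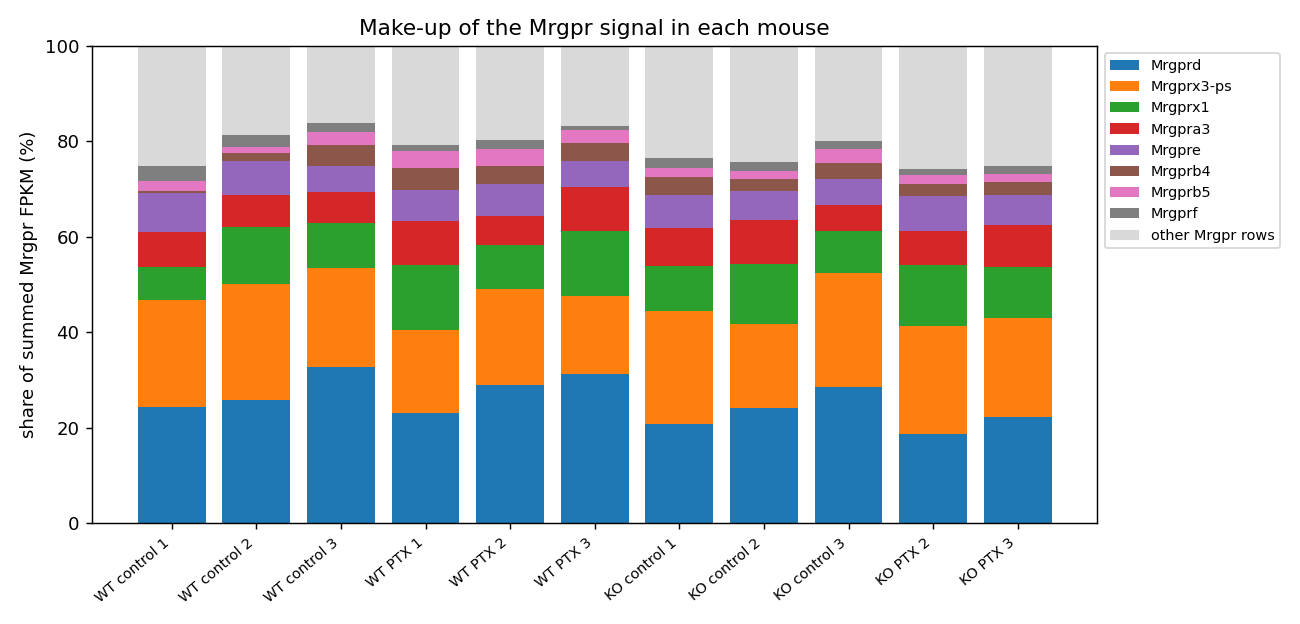
Share of the summed FPKM of all 27 Mrgpr rows (vertical axis, percent) taken by each gene in each of the 11 libraries, with 1 stacked bar per mouse. *Mrgprd* and *Mrgprx3-ps* are the broadest bands in the bars, and *Mrgprb4* is thinnest in WT control mouse 1, at 0.430%.

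The members differed widely in how steady they were. *Mrgpre* had the lowest coefficient of variation over the 11 mice, 6.70%, and *Mrgprx3-ps* came next at 15.8%. *Mrgpra3* and *Mrgprx1* stood at 19.2% and 20.5%, and *Mrgprd* at 25.6%. The low-level genes *Mrgprf* (30.2%), *Mrgprb5* (35.4%), and *Mrgprb4* (43.2%) varied most. Estimated counts ran from 1605 to 2651 for *Mrgpre*, from 3858 to 10928 for *Mrgprd*, and from 33 to 562 for *Mrgprb4*, so counting error alone is small for all genes but the lowest *Mrgprb4* library.

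The first treatment question was whether PTX altered Mrgpr levels in WT mice. *Mrgprf* had the lowest unadjusted p. It was at 3.43, 2.75, and 2.88 FPKM in the 3 controls and at 1.56, 2.45, and 1.18 FPKM in the 3 PTX mice. The groups did not overlap, with all PTX mice below all controls. The share of all genes without overlap was not counted, here or in the comparisons that follow. Lack of overlap is therefore only a description. The fitted change was −0.81 (SE 0.26) on the log2 scale (adjusted p = 0.277 in edgeR's quasi-likelihood test). It therefore did not pass the threshold of 0.05.

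*Mrgprb5* stood at 2.19, 1.57, and 3.88 FPKM in WT controls and at 3.88, 4.39, and 3.55 FPKM after PTX. The PTX values sat high and close together, and they overlapped the controls through the female control mouse. The change was 0.73 (SE 0.27, edgeR adjusted p = 0.328). *Mrgprb4* was at 0.47, 1.93, and 6.22 FPKM in WT controls, the highest coefficient of variation of any member in any group (104.0%), against 5.02, 4.52, and 4.88 FPKM after PTX. The PTX mice lay within the range of the controls. Its change was 1.02 (SE 0.56, edgeR adjusted p = 0.441), and it was 0.44 without WT control mouse 1 and 1.92 without WT control mouse 3. *Mrgprx3-ps* was at 24.51, 27.35, and 29.93 FPKM in WT controls and at 19.28, 24.84, and 21.26 FPKM after PTX, with an overlap between 1 control and 1 PTX mouse and a change of −0.32 (SE 0.13, edgeR adjusted p = 0.348).

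The main nociceptor and itch receptors showed smaller differences. *Mrgprd* stood at 26.59, 29.10, and 46.95 FPKM in WT controls and at 25.39, 35.55, and 40.67 FPKM after PTX. The ranges overlapped, and the change was 0.01 (SE 0.13, edgeR adjusted p = 0.976). *Mrgprx1* was at 7.54, 13.37, and 13.64 FPKM in WT controls and at 14.92, 11.36, and 17.58 FPKM after PTX. The ranges overlapped, with a change of 0.34 (SE 0.24). *Mrgpra3* was at 8.01, 7.47, and 9.46 FPKM in controls and at 10.25, 7.42, and 12.16 FPKM after PTX, again overlapping, with a change of 0.25 (SE 0.22). *Mrgpre* was at 8.95, 8.01, and 7.82 FPKM and at 7.17, 8.38, and 7.04 FPKM, with a change of −0.14 (SE 0.09).

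In total, 0 of the 8 members passed an adjusted p of 0.05 in this comparison in edgeR, where 0.00663% of the 15087 genes tested did. DESeq2 also called 0 members, against 2.05% of genes, and its lowest adjusted p for a member was 0.0696, for *Mrgprf*. At an unadjusted p under 0.05, edgeR held 3 members, 1 higher (*Mrgprb5*) and 2 lower (*Mrgprf* and *Mrgprx3-ps*), against 13.5% of all genes. The median change was 0.13 over the members and −0.01 over all genes.

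In the KO mice, *Mrgprd* was the member with the lowest p for PTX. It stood at 24.81, 31.21, and 39.98 FPKM in KO controls and at 20.74 and 27.31 FPKM after PTX. The PTX mice lay low and overlapped 1 of the controls. The fitted change was −0.50 (SE 0.15, edgeR adjusted p = 0.999). *Mrgprb5* was at 2.31, 2.29, and 4.30 FPKM in KO controls and at 1.91 and 2.23 FPKM after PTX. The PTX mice were below all controls, by a small margin, and the change was −0.55 (SE 0.31, edgeR adjusted p = 0.999).

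*Mrgprb4* gave 4.62, 3.18, and 4.61 FPKM in KO controls and 2.88 and 3.17 FPKM after PTX, just without overlap (−0.57, SE 0.62). *Mrgprf* gave 2.51, 2.22, and 2.28 FPKM and then 1.36 and 2.05 FPKM. As in WT mice, the PTX values of *Mrgprf* were all lower than the controls, with a change of −0.42 (SE 0.30, edgeR adjusted p = 0.999). That value was −0.89 without KO PTX mouse 3 and 0.02 without KO PTX mouse 2, so its direction rests on 1 library. *Mrgprx1* was at 11.10, 16.25, and 12.22 FPKM and then at 14.08 and 13.03 FPKM, and *Mrgpra3* at 9.49, 11.99, and 7.62 FPKM and then at 7.90 and 10.85 FPKM. Both itch receptors kept within the control range, with changes of 0.01 (SE 0.27) and −0.11 (SE 0.25). *Mrgprx3-ps* was at 28.37, 22.50, and 33.65 FPKM and then at 25.12 and 25.45 FPKM (−0.17, SE 0.15), and *Mrgpre* at 8.23, 7.82, and 7.74 FPKM and then at 8.10 and 7.80 FPKM (0.02, SE 0.10). These genes also lay within the range of the KO controls.

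No member passed in this comparison, 0 of 8 in edgeR against 0.00663% of genes and 0 in DESeq2 against 0.192%. At an unadjusted p under 0.05, 1 member (*Mrgprd*, lower) compared with 4.32% of genes. The KO group after PTX held 2 mice, so its spread rests on few values.

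Over both genotypes, the PTX effect on *Mrgprf* was −0.62 (SE 0.20, edgeR adjusted p = 0.443). *Mrgprf* values after PTX ran from 1.18 to 2.45 FPKM and control values from 2.22 to 3.43 FPKM, so the ranges overlapped between 2.22 and 2.45 FPKM. *Mrgprd* (−0.24, SE 0.10, edgeR adjusted p = 0.507) and *Mrgprx3-ps* (−0.25, SE 0.10, edgeR adjusted p = 0.4996) were the other members with an unadjusted p under 0.05. These 3 members, all lower, stood against 9.36% of genes, and 0 members passed the adjusted threshold against 0.0133% of genes in edgeR and 0.829% in DESeq2. Markers of other cell types were also lower after PTX, beside *Mrgprf*, in some of these comparisons. The summed macrophage level was 55.4 to 68.3 FPKM in WT controls and 38.4 to 50.0 FPKM after PTX. In that comparison 7 of 8 macrophage genes had an unadjusted p under 0.05 in edgeR, all lower, beside 13.5% of all genes. *Csf1r*, the receptor that macrophages need, fell by 0.51 and *Mrc1* by 0.57 on the log2 scale in DESeq2 (adjusted p = 0.0342 and 0.0183), calls that edgeR did not make. In KO mice the macrophage sum was 50.8 to 59.8 FPKM in controls and 42.1 to 46.7 FPKM after PTX. There 2 of 8 macrophage genes were lower at an unadjusted p under 0.05, beside 4.32% of all genes. Of 9 smooth muscle and fibroblast genes tested, 4 had an unadjusted p under 0.05 for PTX in KO mice, all lower (median −0.39). In WT mice 0 of the 9 did in edgeR. The collagen gene *Col1a2* fell by 0.51 over both genotypes in DESeq2 (adjusted p = 0.00999). The sum of this list was 169.2 to 206.8 FPKM in KO controls and 109.9 and 177.2 FPKM after PTX. Of 10 skeletal muscle genes, 6 were lower at an unadjusted p under 0.05 over both genotypes (median −2.13), beside 9.36% of all genes. The part of these cells in the *Mrgprf* values was not tested.

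**Figure D3:**
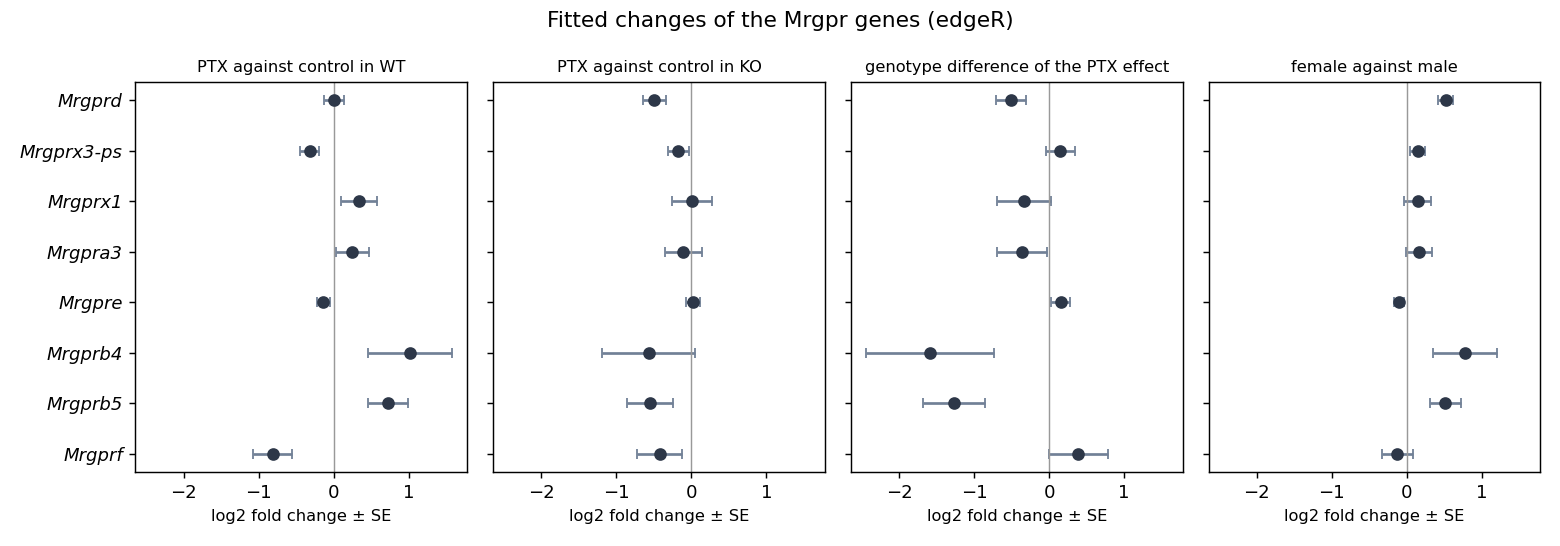
Fitted log2 change of each of the 8 genes (points) with its SE (bars) from edgeR. The panels show PTX in WT, PTX in KO, the genotype difference of the PTX effect, and female against male. The *Mrgprf* estimate for PTX in WT lies at −0.81, the *Mrgprb5* estimate for the genotype difference of the PTX effect at −1.27, and the *Mrgprb4* bars are the longest in each comparison.

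The deletion was then compared with WT in controls, where no member had an unadjusted p under 0.05. *Mrgprd* differed by −0.07 (SE 0.13), *Mrgpra3* by 0.25 (SE 0.22), and *Mrgprx1* by 0.21 (SE 0.24) between KO and WT controls. The largest estimate belonged to *Mrgprb4* (0.78, SE 0.56, edgeR adjusted p = 0.717), whose WT controls spread from 0.47 to 6.22 FPKM and enclosed the KO controls. That estimate was 0.21 without WT control mouse 1 and 1.70 without WT control mouse 3. *Mrgprf* was at 2.75 to 3.43 FPKM in WT controls and at 2.22 to 2.51 FPKM in KO controls without overlap, yet its difference of −0.37 (SE 0.26, edgeR adjusted p = 0.713) did not pass. In edgeR, 0 members were called against 0.00663% of genes, and 0 had an unadjusted p under 0.05 against 7.54%. DESeq2 called 0 members against 0.278% of genes.

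After PTX, *Mrgprb5* and *Mrgprd* were lower in KO than in WT mice at unadjusted p. *Mrgprb5* was at 3.88, 4.39, and 3.55 FPKM in WT and at 1.91 and 2.23 FPKM in KO mice. The genotypes did not overlap, and the difference was −1.04 (SE 0.32, edgeR adjusted p = 0.993). *Mrgprd* was at 25.39, 35.55, and 40.67 FPKM in WT and at 20.74 and 27.31 FPKM in KO mice. The higher KO mouse lay above the lowest WT mouse, and the fitted difference was −0.58 (SE 0.15, edgeR adjusted p = 0.993). *Mrgprb4* was also without overlap, with 4.52 to 5.02 FPKM in WT and 2.88 to 3.17 FPKM in KO mice (−0.81, SE 0.62). *Mrgpra3*, *Mrgprx1*, and *Mrgprf* differed by −0.11 (SE 0.25), −0.12 (SE 0.27), and 0.02 (SE 0.30). No member was called, against 0.0133% of genes in edgeR and 0.0663% in DESeq2, and the 2 members with an unadjusted p under 0.05 stood against 3.55% of genes.

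Averaged over both treatments, KO differed from WT for *Mrgprd* by −0.33 (SE 0.10, edgeR adjusted p = 1.000). It was the 1 member at an unadjusted p under 0.05, against 3.75% of genes. No member was called, against 0.0133% of genes in edgeR and 0.186% in DESeq2. Outside the set, *Mrgpra2a* (0.34, SE 0.09) and *Mrgpra2b* (0.39, SE 0.11) had higher values in KO mice with adjusted p of 1.000, and the split of reads between them is uncertain.

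The difference of the PTX effect between genotypes was tested as an interaction. For *Mrgprb5* it was −1.27 (SE 0.41, edgeR adjusted p = 0.724), from a PTX effect of 0.73 in WT and −0.55 in KO mice. *Mrgprb4*, its nearest relative, had an interaction of −1.59 (SE 0.85, edgeR adjusted p = 0.724), and *Mrgprd* one of −0.51 (SE 0.20, edgeR adjusted p = 0.724). *Mrgpra3* and *Mrgprx1* gave −0.36 (SE 0.33) and −0.33 (SE 0.36). In edgeR 0 members passed, against 0.00663% of genes, and 2 had an unadjusted p under 0.05, against 6.30%. DESeq2 called 0 members, against 0.0795% of genes. The median interaction was −0.35 over the members and −0.01 over all genes. It was also −0.33 over 12 genes of class NP1 and −0.33 over 7 of class NP2, lists that share members with this set. Over 8 genes of NP3, another class of itch neurons, it was 0.02. All of the interaction values use the same 2 KO mice after PTX.

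The 4 female and 7 male mice were compared with the groups held fixed, and *Mrgprd* had the lowest unadjusted p of the members. Within WT controls the female was at 46.95 FPKM and the males at 26.59 and 29.10 FPKM. Within WT mice after PTX the female was at 40.67 FPKM and the males at 25.39 and 35.55 FPKM. The female KO control was at 39.98 FPKM, against 24.81 and 31.21 FPKM in the males, and after PTX the KO female was at 27.31 FPKM against 20.74 FPKM in the male. The female thus had the highest *Mrgprd* of its group in 4 of 4 groups. Over all mice the sexes overlapped, because the KO female after PTX lay below several males. The female mean was 38.7 ± 8.23 FPKM (SD, n = 4) and the male mean 27.6 ± 4.82 FPKM (SD, n = 7). The fitted difference was 0.52 (SE 0.10) on the log2 scale, a fold of 1.43.

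For *Mrgprd* the edgeR adjusted p was 0.247, and the DESeq2 adjusted p for the same change of 0.52 was 0.000316. DESeq2 therefore called it and edgeR did not. Over 19 fits, the main fit among them, the *Mrgprd* estimate stayed between 0.44 and 0.62, and it was called in 1 of them. Of the 8 members, edgeR called 0 (0.0398% of all genes) and DESeq2 called 1 (0.838% of all genes). At an unadjusted p under 0.05, edgeR held 2 members, *Mrgprd* and *Mrgprb5* (0.52, SE 0.21, adjusted p = 0.547), against 8.44% of genes. *Mrgprb4* had an estimate of 0.77 (SE 0.43), and *Mrgpra3*, *Mrgprx1*, and *Mrgprx3-ps* had estimates between 0.14 and 0.16. *Mrgpre* and *Mrgprf* gave −0.11 (SE 0.07) and −0.13 (SE 0.21).

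**Figure D4:**
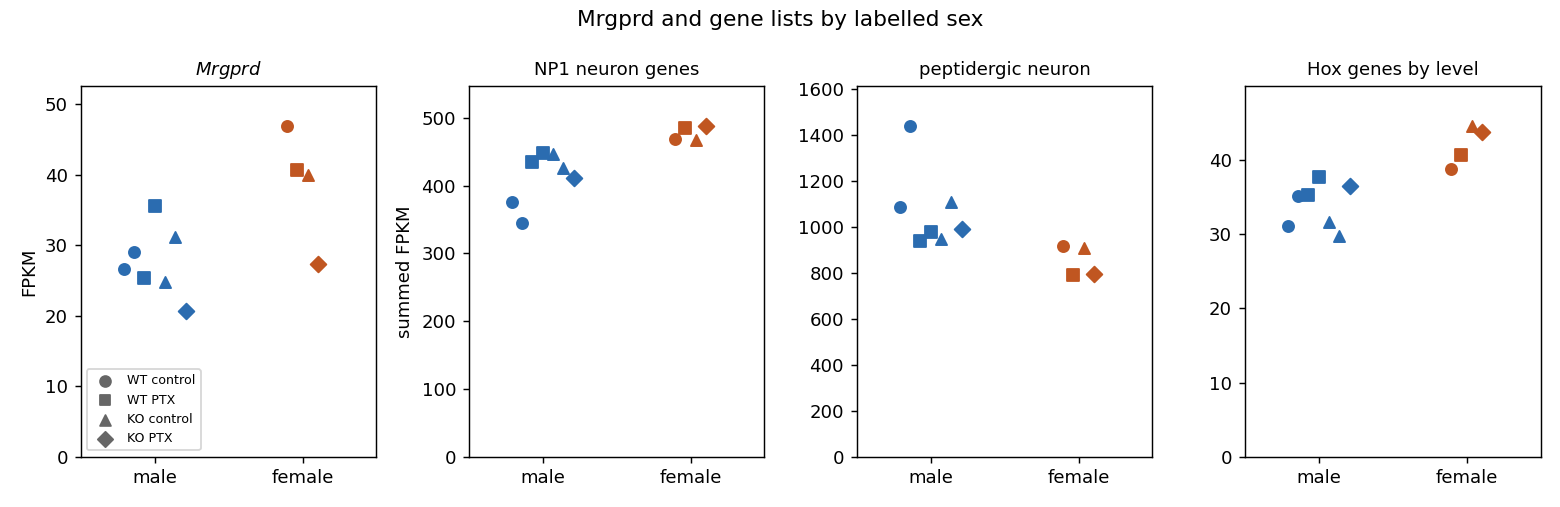
Levels in FPKM (vertical axis, from 0, scaled per panel) of *Mrgprd* and of summed gene lists in the 7 male and 4 female mice, with 1 point per mouse marked by group. The NP1 sum, which includes *Mrgprd*, lies at 467.0 to 488.3 FPKM in females and at 344.2 to 448.1 FPKM in males. The peptidergic sum lies at 789.5 to 918.6 FPKM in females and at 937.9 to 1440.8 FPKM in males.

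Other genes of the *Mrgprd* neuron class were examined by sex, and none of them was called by edgeR or DESeq2. The NP1 list holds 12 genes, *Mrgprd* among them, and 8 had an unadjusted p under 0.05 for sex in edgeR, all higher in females, with a median of 0.23 against 0.00 over all genes and beside 8.44% of all genes at that level. Its other abundant genes are *Scn11a*, a sodium channel of nociceptors (76.43 to 109.19 FPKM), the ATP-gated channel gene *P2rx3* (60.83 to 74.82 FPKM), and *Gfra2*, a coreceptor for neurturin (43.54 to 65.93 FPKM). The summed NP1 level, which includes *Mrgprd*, did not overlap between the sexes. That full separation needs *Mrgprd*, but only by a narrow margin. The sum was 468.92 FPKM in the female WT control, 46.95 FPKM of it *Mrgprd*. In the male KO control mouse 1 it was 447.09 FPKM, 24.81 FPKM of it *Mrgprd*. Without *Mrgprd*, only this male lies above this female, by a narrow margin, and in each group the female sum stays the highest. Peptidergic genes lay the other way, with 5 of 6 at an unadjusted p under 0.05, all lower in females, against the same 8.44% of all genes, and a median of −0.34. *Calca*, which encodes CGRP, fell by 0.32 and *Tac1*, which encodes substance P, by 0.37 in DESeq2 (adjusted p = 0.0229 and 0.0318), but neither passed in edgeR.

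Markers of ganglion position and of other cells were compared by sex beside the same 8.44% of all genes. Of 11 Hox genes tested, which record the position of a ganglion along the body axis, 7 had an unadjusted p under 0.05, all higher in females, with a median of 0.31. Of these, *Hoxc10* passed in DESeq2 (0.55, adjusted p = 0.0401) and none passed in edgeR. The summed Hox level was 38.9 to 44.6 FPKM in females and 29.8 to 37.8 FPKM in males. The peptide gene *Nts* was at 6.16, 6.87, 5.74, and 7.37 FPKM in the females and at 11.67 to 55.11 FPKM in the males, and DESeq2 put its change at −2.07 (adjusted p = 5.93e-06). Of 5 mast cell genes tested, 4 were higher in females at that level (median 0.75) and none was called, while *Mrgprb2* stayed at or below 0.20 FPKM in every library. *Fabp7*, a satellite glial gene, fell by 0.61 in females in DESeq2 (adjusted p = 1.23e-09), and the neuronal tubulin gene *Tubb3* fell by 0.26 (adjusted p = 0.0113). Of the 12 pan-neuronal genes, 2 were higher and 2 lower in females at an unadjusted p under 0.05 in edgeR (median −0.03). The summed satellite glial level overlapped between the sexes, at 1056.6 to 1284.3 FPKM in females and 1101.0 to 1487.7 FPKM in males. The part of ganglion position and of these other cells in the *Mrgprd* difference was not tested, and sex, mouse number and these markers cannot be told apart here.

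The same NP1 list was examined for treatment. In WT mice, 6 of its 12 genes had an unadjusted p under 0.05 for PTX, all higher, with a median of 0.27, beside 13.5% of all genes at that level. In DESeq2, *Plxnc1*, a semaphorin receptor (0.38, adjusted p = 0.0023), the kainate receptor gene *Grik1* (0.40, adjusted p = 0.0279), and *Prkcq*, a protein kinase C gene (0.47, adjusted p = 0.0305), rose after PTX. *Mrgprd* itself, with 0.01, was not among them. In KO mice 1 of the 12 genes, *Mrgprd*, had an unadjusted p under 0.05, beside 4.32% of all genes, and the median was −0.03. KO controls against WT controls gave 4 of 12, all higher, beside 7.54% of all genes. These comparisons share control mice, so their counts are not separate evidence.

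Genes of the itch classes were counted for the same comparison, where 13.5% of all genes had an unadjusted p under 0.05. Of the 7 NP2 genes, which include *Mrgpra3* and *Mrgprx1*, 2 were higher and 1 lower at an unadjusted p under 0.05 for PTX in WT mice, and *Cd55*, a complement inhibitor, rose by 0.44 in DESeq2 (adjusted p = 0.0283). The 8 NP3 genes, which mark the itch neurons that use the peptides NPPB and somatostatin, had 1 higher and 1 lower. Among 18 other itch receptors and itch genes, 14 could be tested, 2 were lower at that level, a share near that of all genes, and *Il4ra*, the interleukin receptor subunit, fell by 0.49 in DESeq2 (adjusted p = 0.0285). *Il4ra* was at 8.87, 11.98, and 6.89 FPKM in WT controls and at 6.84, 6.86, and 5.98 FPKM after PTX. Only the female control came close to the PTX values.

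Downstream of the receptors, 18 genes of Mrgpr signaling were tested, from Gq and Gi proteins through phospholipase C to TRP channels and arrestins. For PTX in WT mice 4 were higher and 2 lower at an unadjusted p under 0.05, beside 13.5% of all genes, with a median of 0.05. *Plcb4*, a phospholipase C gene, rose by 0.34 and *Arrb1*, an arrestin that ends receptor signaling, fell by 0.39 in DESeq2 (adjusted p = 0.0311 and 0.0194). *Arrb1* was at 29.03, 38.25, and 25.85 FPKM in WT controls and at 24.83, 23.91, and 22.22 FPKM after PTX. The groups did not overlap. *Plcb3*, the abundant phospholipase C gene of nociceptors, was at 57.01 to 85.84 FPKM over the 11 mice and was not called in any comparison.

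Of 9 tested genes for Mrgpr ligands and the enzymes that make them, 1 was higher and 1 lower at an unadjusted p under 0.05 for PTX in WT mice, where 13.5% of all genes were at that level. For sex, where 8.44% of all genes were, 1 was higher and 3 were lower, *Tac1* among them. The 13 regulators of Mrgpr neurons had 3 higher and 1 lower for PTX in WT mice and 5 higher for sex, beside the same shares of all genes. *Runx1* was at 4.70, 5.54, and 7.05 FPKM in WT controls and at 7.23, 6.63, and 8.21 FPKM after PTX. These ranges overlapped through the female control, and DESeq2 called the change of 0.36 (adjusted p = 0.0466). *Prdm12*, a regulator of nociceptor identity, rose by 0.20 in females in DESeq2 (adjusted p = 0.0484). edgeR called 0 genes of these lists in any of the 8 comparisons.

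Across the 11 libraries, the genes whose log2(FPKM + 1) followed each member most closely among the 15087 tested were listed as a description. *Mrgprd* was closest to *Aasdh* (Pearson r = 0.91), *Slc38a9* (0.87), and *Gm715* (0.84), and none of the other NP1 genes was among them. Only the closest 3 of the 15087 genes were listed, so that absence says little of the NP1 genes. *Mrgpra3* was closest to *mt-Nd2* (0.92), *Nexn* (0.91), and *Hunk* (0.91), and *Mrgprx1* to *Smarca5* (0.96), *Emb* (0.95), and *Kcnq3* (0.95). *Mrgprb4* followed *Hltf* (0.97), *Ogt* (0.96), and *Gm43268* (0.96), and *Mrgprb5* followed *Trim67* (0.94), *Fn3k* (0.92), and *Tvp23b* (0.91). *Mrgprf* was closest to *Csf1r* (0.95), the macrophage receptor, followed by the vascular and matrix genes *Igfbp7* (0.94) and *Hspg2* (0.93). *Mrgpre* was closest to *Gm17922* (0.95) and *Mrgprx3-ps* to *Frmpd3* (0.90). With group means removed, these genes kept r between 0.81 and 0.98, although at most 1 of the 3 stayed among the closest 3 of a member.

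Members were also set against each other over the 11 libraries, which share depth and tissue composition. *Mrgprb4* and *Mrgprb5* had r = 0.66, *Mrgprd* and *Mrgprb5* r = 0.67, and the itch receptors *Mrgprx1* and *Mrgpra3* r = 0.60. *Mrgpre* and *Mrgprf* varied together (r = 0.73) and ran against *Mrgprx1* (r = −0.86 and −0.73). The members thus formed no single axis over the mice.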

How the data were processed

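Total RNA from DRGs of 11 mice was sequenced with a stranded poly(A) kit. Per the labels, reads went through cutadapt, FastQC, HISAT2, and StringTie on mm10. Tool versions are not given in the sources used here. The authors deposited FPKM values and estimated counts per gene in 1 table. Counts were rounded and tested in edgeR 4.0.16 (quasi-likelihood, TMM, labelled sex as covariate, 11 libraries in 1 fit) over the 15087 of 36670 genes that averaged 0.5 FPKM or more, with Benjamini-Hochberg adjustment. SE was taken from the log2 change and F. DESeq2 1.42.0 and limma 3.58.1 on log2(FPKM + 1) were alternatives. The edgeR script was tested on simulated data. Each sample is labelled as a separate mouse.

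The members and gene lists were chosen with earlier results of these data known. Named were the members, Mrgpr rows at a mean FPKM of at least 1, list genes past the threshold or among the 3 of highest mean per list, the 3 genes of highest r per member, and *Gpr37l1*. *Mrgprb2* was added after its values were seen, as were list genes called by DESeq2 alone. Sequences came from GENCODE transcripts and the RefSeq promoter table, which matched 5 of 8 members.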

Additional observations from a re-analysis of the deposited data

How the results depend on the processing

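No member was called in edgeR or limma under any alternative, and of 1296 fits of a member under an alternative 1 passed, *Mrgprd* for sex in DESeq2, which makes 1 member called in place of 0. No called value changed sign, but no member was called in the main fits, so this covers no change of a member. Of the 1296 fits, 8 had a sign that differed from the main fit by more than 1 SE. The counts of genes called moved. DESeq2 called 309 genes for PTX in WT (edgeR 1), 29 for PTX in KO (1), 42 for KO in controls (1), 10 for KO after PTX (2), 125 for PTX over both genotypes (2), 28 for KO over both treatments (2), 12 for the interaction (1), and 124 for sex (6). For PTX in WT the count was 2 without the filter, 0 without the sex covariate, 5 with 2 groups only, and 0 in limma with either pseudocount (1 or 0.1). With 2 groups only it was 4 for PTX in KO and 5 for KO after PTX. For PTX over both genotypes it was 1 without the sex covariate, 0 in limma with a pseudocount of 1, and 1 with 0.1. For sex it was 14 without the filter. Leaving out each library in turn gave 0 to 30 genes for PTX in WT, 1 to 7 for PTX in KO, 1 to 4 for KO in controls, 2 to 7 for KO after PTX, 1 to 18 for PTX over both genotypes, 2 to 5 for KO over both treatments, 1 to 6 for the interaction, and 5 to 12 for sex, with 0 members in each. The highest counts came without WT control mouse 3 for PTX in WT, WT control mouse 2 for PTX over both genotypes, KO control mouse 3 for KO in controls and for sex, and KO PTX mouse 2 for the interaction, for KO after PTX, and, tied with another mouse, for PTX in KO and for KO over both treatments. For PTX in WT the count was 0 without WT control mouse 1, WT PTX mouse 1 or 2, or KO PTX mouse 3. A lone KO mouse left after PTX was assumed to vary like the other groups. The cause of these moves was not tested.

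With the replicate number as a block the count for PTX in WT was 1, and the block changed no member's call. Deviations of same-numbered mice correlated between −0.228 and 0.234 (median 0.0619, 15 pairs), and not every pair was above 0.1, so the numbers were not taken to pair the mice. The 6 pairs of number 3, which share the female sex, ran from 0.0439 to 0.234. The order of *Mrgprd* over *Mrgprx3-ps* failed in 10 alternatives, with adjusted p between 0.0513 and 0.0991. With 2 or 3 mice per group, the changes of *Mrgprb4* were measured with SE above 0.5 in 5 of 8 comparisons.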
